A study of Mus musculus with 13 samples.

Results

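The genes described here code for the proteins of the splicing machinery in mouse embryonic stem cells. They were taken by name from the gene count table: every Srsf gene with a number, every Hnrnp gene, every Sf3a or Sf3b gene with a number, and every Snrp gene other than Snrpn. This gave 52 of the 24470 genes, namely 11 SR protein genes, 21 hnRNP genes, 9 SF3a and SF3b genes and 11 genes of snRNP proteins. The cells were E14 mouse embryonic stem cells, a line of 129/Ola background with no edited allele named in the labels, grown in Glasgow medium with fetal bovine serum and leukemia inhibitory factor (LIF). All libraries came from this 1 line in this 1 medium, and the labels name no treatment. In the low-input protocol, detergent-opened cells were cut with the transposase Tn5 and messenger RNA was then drawn from the same lysate on oligo-dT beads, so each mRNA library has an ATAC partner. Experiment 1 gave libraries from 10000 and 20000 cells, and experiment 2, on another day, from 5000, 10000 and 20000 cells. Omni-ATAC, the benchmark protocol, gave 1 library each from 5000, 10000 and 50000 cells.

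Splicing removes introns from pre-mRNA in a large particle, the spliceosome, which is built anew on each intron from small nuclear ribonucleoproteins (snRNPs). U1 snRNP pairs with the 5′ splice site and U2 snRNP with the branch point. Each holds a ring of Sm proteins around its RNA, and U2 also carries the SF3a and SF3b complexes. SR proteins, named for a tail rich in arginine and serine, bind exons and mostly favour their use, while hnRNPs coat the transcript and often, though not always, oppose it. Embryonic stem cells divide fast and depend on a steady supply of this machinery. Several SR protein and hnRNP genes also carry a poison exon, whose inclusion sends their own mRNA to decay.

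Depth and cell identity were checked first. The 5 mRNA libraries held 13727122 to 20426252 counts, so that the limit that a count of 0 allows (3 counts) lay between 0.147 and 0.219 CPM. CPM is a gene's count divided by the sum of its library and scaled to 1e+06 counts. The splicing factor genes took 1.28% to 1.32% of all counts, and the 13 mitochondrial mRNAs, a measure of RNA quality, 2.02% to 2.22% in experiment 1 and 1.62% to 1.98% in experiment 2. All 10 stem cell markers had a mean of at least 1 CPM and summed to 3303 to 3417 CPM in experiment 1 and 3312 to 3341 CPM in experiment 2. Within this sum Zfp42 and Klf4 were higher and Utf1 lower in experiment 2 at an edgeR adjusted p under 0.05, Utf1 with 595.3 and 556.6 CPM and then 424.0, 362.2 and 415.3 CPM. Other marker sums differed between the experiments. The 8 fibroblast genes summed to 32.1 to 35.5 CPM in experiment 1 and 9.01 to 10.5 CPM in experiment 2. Thy1 made up most of this, with 29.2 and 33.9 CPM and then 9.78, 6.77 and 7.05 CPM. Pdgfrb had 0.73 and 0.54 CPM and then 0.48, 1.61 and 1.47 CPM. Of these 8, 1 (Thy1) reached a mean of 1 CPM, and Col3a1 and Lum stood at 0 throughout. The 7 primitive endoderm genes, of which 2 reached that mean, summed to 11.6 to 15.5 CPM and 2.69 to 2.84 CPM, with Gata6 at 0 in the experiment 2 libraries from 5000 and 10000 cells. The 6 genes of the two-cell-like state, of which 3 reached it, summed to 9.57 to 14.4 CPM and 0.245 to 4.53 CPM, with Gm6763 and Usp17lc at 0 throughout. The 4 neural genes, all of which reached it, summed to 19.8 to 22.4 CPM and 31.4 to 37.4 CPM. The part of these genes, or of the mitochondrial share, in the differences between experiments was not tested.

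Nearly all splicing factor genes were expressed. Averaged over the 5 libraries, 47 of 52 stood at 10 CPM or more, and 50, Srsf12 and a pseudogene being the exceptions, had enough counts to be tested. The exceptions to the 10 CPM mean were Hnrnph2 (9.59 CPM), Srsf4, Hnrnph3, Srsf12 and the pseudogene Hnrnpa1l2-ps2. The 21 hnRNP genes summed to 2817 and 2927 CPM in experiment 1 (10000, then 20000 cells) and to 2867, 3386 and 3280 CPM in experiment 2 (5000, 10000 and 20000 cells). The 11 SR protein genes summed to 1292 and 1297 CPM and to 1413, 1557 and 1543 CPM in the same order, so all libraries of experiment 2 lay above those of experiment 1. The 9 SF3 genes summed to 2086 and 2050 CPM and to 1924, 1933 and 2012 CPM, below experiment 1 in every library of experiment 2. This order rests on Sf3b5: without it the other 8 summed to 1288 and 1327 CPM and to 1333, 1377 and 1479 CPM, above experiment 1 in every library. The 11 snRNP protein genes summed to 6647 and 6786 CPM and to 6684, 6290 and 6012 CPM. With 5000 cells the hnRNP and snRNP protein sums thus lay inside the range of experiment 1. These are shares of a bulk library, in which fewer cells of a type and less RNA per cell cannot be told apart. CPM are not corrected for transcript length and do not rank genes by the number of their mRNA molecules. Many of these genes have processed pseudogenes elsewhere in the genome, and how reads that match several places were counted is not given in the sources used here, so levels may be shared with copies.

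**Figure D1:**
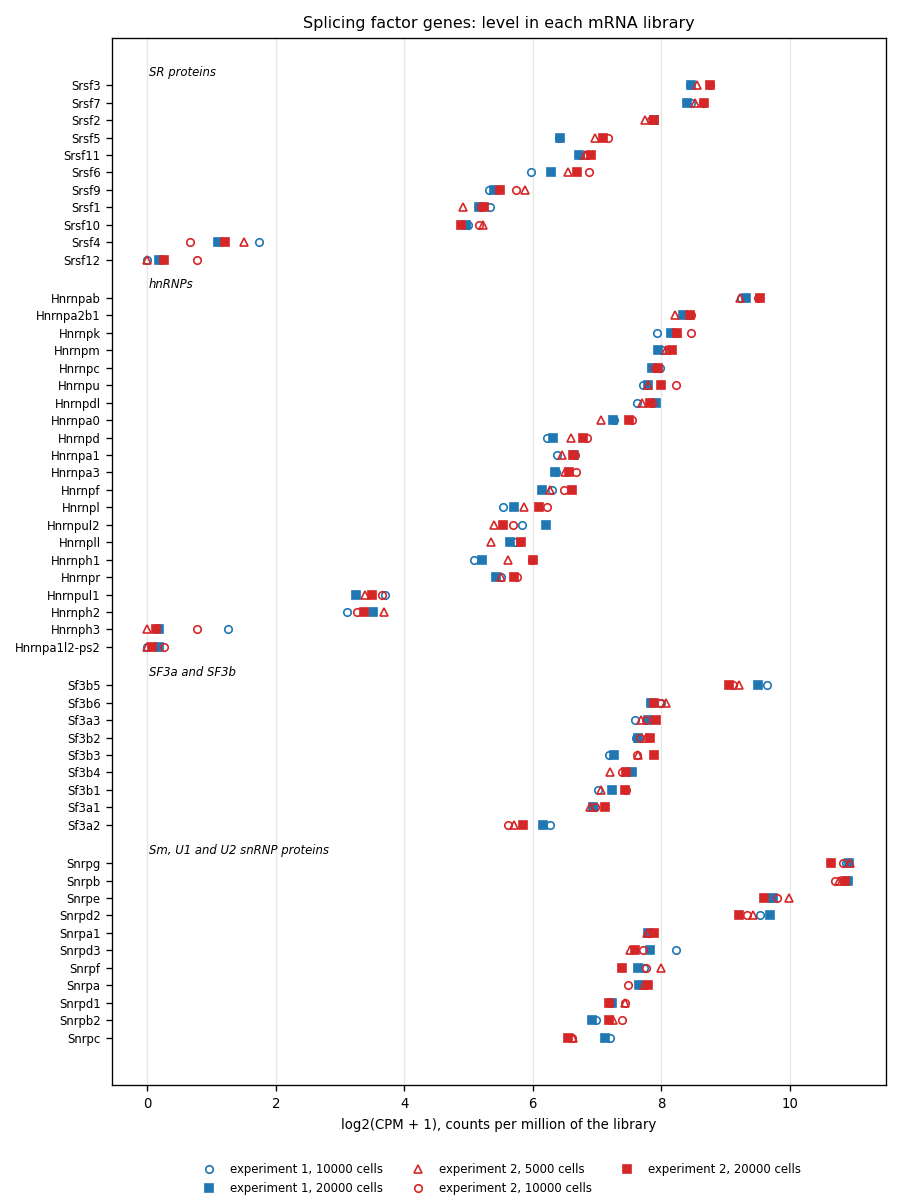
Each row is 1 splicing factor gene, in family order and by mean level, and the horizontal axis is log2(CPM + 1). Blue marks are the 2 libraries of experiment 1 and red marks the 3 of experiment 2; circles are 10000 cells, squares 20000 and triangles 5000. Hnrnph1, Srsf5 and Srsf6 have all red marks to the right of the blue ones, and Snrpc and Sf3b5 have them to the left.

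The repeat on another day addressed reproducibility, so experiment 2 was compared with experiment 1 over the libraries from 10000 and 20000 cells (2 against 2, edgeR's quasi-likelihood test on counts, Benjamini-Hochberg adjusted over all 12523 genes tested). A gene is called where the adjusted p is under 0.05. Of the 50 splicing factor genes tested, 11 were called, 7 higher and 4 lower in experiment 2, which is 22%, where 12.5% of all genes were called. The background, meaning the share called over all genes tested, was 5.75% for higher and 6.76% for lower calls. When only genes averaging 10 CPM or more were fitted, the calls were 14 of 47 splicing factor genes beside 21.9% of all such genes. The count rests in part on 1 library: without the experiment 1 library from 10000 cells, 4 of 51 genes tested were called (7.84%, where 7.57% of all genes were), among them 3 of the 11, and Srsf6, Hnrnpd, Hnrnpl, Hnrnpu, Sf3a2, Sf3b3, Sf3b5 and Snrpd2 were lost. These 8 kept their sign, with log2 fold changes of 0.325 to 0.508 in size beside 0.337 to 0.655, and SE of 0.159 to 0.195 beside 0.111 to 0.145. A group left with 1 library is assumed to vary like the other. Without the experiment 2 library from 10000 cells 8 of 50 were called (16%, where 6.09% of all genes were), and Hnrnpl, Hnrnpu and Sf3a2 were lost, again with the same sign, at 0.250 to 0.492 in size beside 0.368 to 0.545 and SE of 0.131 to 0.176 beside 0.122 to 0.145. At an unadjusted p under 0.05 there were 21 of 50, where the background was 25.7%. The log2 fold change was above 0 in 33 and below 0 in 17 genes, with a median of 0.107 beside 0.001 over all genes. Libraries of an experiment share a day, and nothing says that they were separate cultures, so the p-values measure the spread between these libraries and carry no replication of days.

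The library from 5000 cells stood outside these fits. All 11 called genes had, with 5000 cells, a CPM beyond the range of experiment 1 on the side of experiment 2, as did 1489 of the 1567 called genes of the whole table (95.02%). Over the 50 genes tested, the 3 libraries of experiment 2 all lay above both of experiment 1 in 16 genes (32%, background 17.7%) and all below in 7 (14%, background 23.9%).

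**Figure D2:**
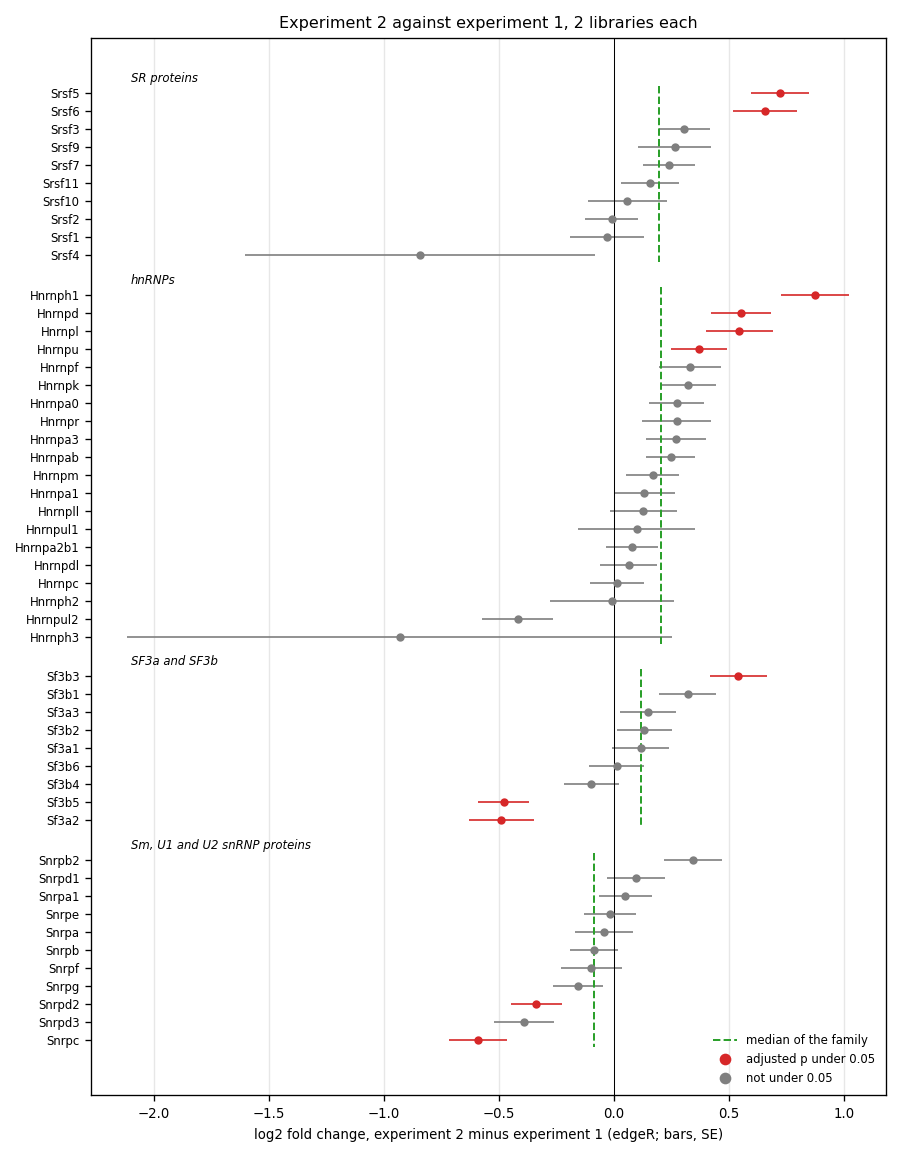
Points are the log2 fold changes of experiment 2 against experiment 1 for the 50 genes tested, with bars of 1 SE (edgeR, 2 libraries each), sorted within families. Red points have an adjusted p under 0.05, and the dashed line is the median of the family. The 6 called SR protein and hnRNP genes lie to the right of 0, and the 2 called snRNP protein genes to the left.

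Among the SR proteins, 2 of 10 tested genes were called, both higher in experiment 2, and 0 lower, with a family median log2 fold change of 0.196. Srsf5, an SR protein that promotes the use of exons and lies at mm10 chr12:80945504-80950507, had 83.7 and 85.1 CPM in experiment 1 and 123.6, 142.5 and 135.6 CPM with 5000, 10000 and 20000 cells of experiment 2. All 3 libraries of experiment 2 lay above both of experiment 1, by a log2 fold change of 0.72 ± 0.13 (SE, edgeR adjusted p = 0.000343). Srsf6 (chr2:162931508-162937121), a regulator of alternative exons, had 62.1 and 77.1 CPM and then 92.9, 116.4 and 102.6 CPM. Its groups did not overlap either, and the log2 fold change was 0.66 ± 0.14 (edgeR adjusted p = 0.00252). Srsf3 (chr17:29032660-29043372), the smallest SR protein and one that also serves mRNA export, had the family's highest mean CPM over the 5 libraries, with 346.5 and 353.2 CPM in experiment 1 and 377.0, 431.4 and 432.8 CPM in experiment 2. The groups did not overlap, but the difference of 0.31 ± 0.11 did not pass the test (edgeR adjusted p = 0.0749). Srsf1, the founding member of the family, had 39.1 and 34.7 CPM and then 29.3, 35.4 and 36.8 CPM, so the experiments overlapped. Srsf2, which binds exonic enhancers, had 233.3 and 234.9 CPM and then 214.4, 229.1 and 235.5 CPM, again with overlap. The other tested members, Srsf4, Srsf7, Srsf9, Srsf10 and Srsf11, ran from -0.84 ± 0.76 for Srsf4 to 0.26 ± 0.16 for Srsf9.

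A pair of SR protein genes had few counts. Srsf4 (chr4:131873639-131901725) had 2.33 and 1.14 CPM and then 1.85, 0.58 and 1.32 CPM, with overlapping experiments. It shares 2248 bp with the gene Gm12992, and how reads of shared stretches were counted is not given in the sources used here; the part of this overlap in its low count was not tested. Srsf12 (chr4:33208991-33233340) had 0 and 2 counts in experiment 1 and 0, 11 and 4 counts in experiment 2, too few to be tested, and libraries at 0 occurred in both experiments.

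Among the hnRNPs, 4 of 20 tested genes were called, all higher, and the family median was 0.206. Hnrnph1 (chr11:50377719-50386528), which binds runs of G in RNA, had 32.9 and 35.9 CPM in experiment 1 and 48.2, 62.8 and 63.2 CPM in experiment 2. Each library of experiment 2 lay above both of experiment 1, and the log2 fold change of 0.87 ± 0.15 was the largest rise among the 50 genes (edgeR adjusted p = 0.000262). Hnrnpd (chr5:99955935-99978938), also known as AUF1 for its binding to AU-rich elements of unstable mRNAs, had 73.4 and 78.7 CPM and then 95.2, 114.3 and 108.5 CPM. The groups did not overlap (0.55 ± 0.13, edgeR adjusted p = 0.00574). Hnrnpl (chr7:28810890-28822266), a CA-repeat binder, had 45.2 and 51.5 CPM and then 57.0, 73.2 and 67.7 CPM. It too was separate between the experiments (0.54 ± 0.14, edgeR adjusted p = 0.0134). Hnrnpu (chr1:178328300-178337784), a scaffold protein that binds both RNA and chromatin, had 208.3 and 221.3 CPM and then 221.6, 299.2 and 254.3 CPM. Its library from 5000 cells lay just above the range of experiment 1, and the test was passed narrowly (0.37 ± 0.12, edgeR adjusted p = 0.0486); the call was lost in 5 of 11 alternative fits.

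The other hnRNP genes did not pass the test. Hnrnpab (chr11:51600100-51606881), which had the family's highest mean CPM over the 5 libraries, had 602.7 and 636.2 CPM and then 599.3, 728.4 and 739.0 CPM, where the library from 5000 cells lay just below experiment 1 and the others above it (0.25 ± 0.11). Hnrnpk, a poly(C) binder, had 243.0 and 283.0 CPM and then 300.7, 352.7 and 303.5 CPM, all above experiment 1 (0.32 ± 0.12, edgeR adjusted p = 0.0903). Hnrnpc, which binds runs of U in introns, had 250.9 and 229.6 CPM and then 242.3, 238.9 and 245.0 CPM, all inside the range of experiment 1. Hnrnpul2, a relative of Hnrnpu, went the other way, with 56.0 and 72.7 CPM and then 41.1, 50.8 and 45.4 CPM. Its groups did not overlap, but the difference of -0.42 ± 0.15 did not pass (edgeR adjusted p = 0.0767). Of the 20 genes, 17 had a log2 fold change above 0. Hnrnpa0, Hnrnpa1, Hnrnpa2b1, Hnrnpa3, Hnrnpdl, Hnrnph2, Hnrnpll, Hnrnpm, Hnrnpr and Hnrnpul1 were not called either, at 7.65 to 353.1 CPM in single libraries. Hnrnph3 (chr10:63014664-63023849) had 1.38 and 0.13 CPM and then 0, 0.71 and 0.10 CPM, which overlapped; it shares 4079 bp with Rufy2. Hnrnpa1l2-ps2 (chr15:22713820-22714984) had at most 3 counts in any library, which is not above the limit that a count of 0 allows.

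The promoter of Hnrnph1 is shown because this gene rose most. It is read 5′ to 3′ over the 250 bases before a RefSeq start that lies 41 bp upstream of the count table's start (GRCm38.p6, plus strand, chr11:50377428-50377677), and capitals mark the bases inside a peak in at least 4 of the 8 ATAC lists.
Hnrnph1: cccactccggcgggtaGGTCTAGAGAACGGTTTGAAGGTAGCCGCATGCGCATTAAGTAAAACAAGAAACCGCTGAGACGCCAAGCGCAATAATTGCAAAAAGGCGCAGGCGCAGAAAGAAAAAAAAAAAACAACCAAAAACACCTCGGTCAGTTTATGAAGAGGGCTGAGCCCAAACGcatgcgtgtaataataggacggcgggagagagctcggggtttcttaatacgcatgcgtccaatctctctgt
The capitals run from -234 to -72 counted from the start. The letters GCATGCG, the core of the site bound by nuclear respiratory factor 1, begin at -207, -72 and -21 on the shown strand, each overlapping a match on the other strand by all but 1 base, and CCAAT begins at -13. At least 1 peak lay within 1000 bp of the start in all 8 lists. The widest was 9 bp in both experiment 1 lists and 19, 314 and 180 bp with 5000, 10000 and 20000 cells of experiment 2, and in the Omni-ATAC lists 23, 146 and 824 bp. Intervals of 9 bp are the shortest the lists hold, and the lists give no height.

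Of the 9 SF3a and SF3b genes, 1 was called higher, 2 lower and 6 neither, with a family median of 0.116. Sf3b3 (chr8:110810492-110846803), a large propeller-shaped subunit that holds the SF3b core together, had 143.9 and 152.0 CPM and then 197.5, 195.3 and 234.5 CPM. Experiment 2 lay above experiment 1 in every library (0.54 ± 0.12, edgeR adjusted p = 0.00475). It shares 268 bp with Cog4 and Snord111, and it is the one splicing factor gene on chromosome 8. The 691 other tested genes of that chromosome had a median log2 fold change of 0.46, with 209 called higher and 9 lower, and the part of this shift in the Sf3b3 value was not tested. Without the library from 10000 cells of experiment 1 or that from 20000 cells of experiment 2, Sf3b3 did not pass, at 0.50 ± 0.18 (edgeR adjusted p = 0.0583) and 0.41 ± 0.14 (edgeR adjusted p = 0.0755). Sf3b5 (chr10:13008450-13009183), a small SF3b subunit encoded by a short gene of 734 bp, the SF3 gene of the highest mean CPM over the 5 libraries, had 797.2 and 722.3 CPM and then 590.7, 556.3 and 532.7 CPM, below experiment 1 throughout (-0.48 ± 0.11, edgeR adjusted p = 0.00511). Sf3a2 (chr10:80798735-80804922), an SF3a subunit with a zinc finger, had the lowest mean CPM of the SF3 genes, with 76.4 and 70.5 CPM and then 51.1, 48.2 and 56.4 CPM. Its groups did not overlap (-0.49 ± 0.14, edgeR adjusted p = 0.0237). Sf3b1, the HEAT-repeat subunit that grips the branch point, had 128.4 and 149.1 CPM and then 132.6, 174.2 and 171.7 CPM, with the library from 5000 cells inside the range of experiment 1 (0.32 ± 0.12, edgeR adjusted p = 0.0947). Sf3a1, Sf3a3, Sf3b2, Sf3b4 and Sf3b6 lay between -0.10 ± 0.12 for Sf3b4 and 0.15 ± 0.12 for Sf3a3.

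Among the snRNP protein genes, 2 of 11 were called, both lower, and 8 of 11 had a log2 fold change below 0; the family median was -0.088, and 0.027 with the library from 5000 cells added to the fit. Snrpc (chr17:27840087-27851968), the U1 protein that steadies the pairing of U1 with the 5′ splice site, had 146.2 and 139.1 CPM in experiment 1 and 97.4, 97.0 and 92.1 CPM in experiment 2. The experiments were well apart, and the log2 fold change of -0.59 ± 0.13 was the largest fall among the called genes (edgeR adjusted p = 0.00243). Snrpd2 (chr7:19149838-19152726), an Sm ring protein, had 739.3 and 822.4 CPM and then 684.6, 642.9 and 591.4 CPM. All of experiment 2 lay below experiment 1 and the test was passed narrowly (-0.34 ± 0.11, edgeR adjusted p = 0.0482), with the call lost in 8 of 11 alternative fits. Snrpd3, another Sm ring protein, had 298.5 and 225.8 CPM and then 181.2, 208.1 and 191.4 CPM, also without overlap, and did not pass (-0.39 ± 0.13, edgeR adjusted p = 0.0521). With cell number as a block it did (-0.38 ± 0.13, edgeR adjusted p = 0.0312), while Snrpd2 then did not (edgeR adjusted p = 0.0568). Of the 7 Sm ring genes (Snrpb, Snrpd1, Snrpd2, Snrpd3, Snrpe, Snrpf and Snrpg), 0 were called higher and 1 lower, and their median was -0.099.

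Most other Sm and snRNP genes overlapped between the experiments. Snrpg (chr6:86371540-86378902), which had the highest mean CPM of the 52 genes over the 5 libraries, had 1876 and 1936 CPM and then 1969, 1826 and 1590 CPM (-0.16 ± 0.11). Snrpb (chr2:130171636-130179364), which codes for SmB, had 1842 and 1917 CPM and then 1732, 1670 and 1864 CPM (-0.09 ± 0.10). In neither gene were the experiments separate. Snrpe had 825.3 and 856.5 CPM and then 1014, 888.1 and 771.2 CPM, and Snrpf (chr10:93583029-93589658) had 211.6 and 198.4 CPM and then 253.8, 216.4 and 165.9 CPM, each with the 5000 and 10000 cell libraries above and the 20000 cell library below experiment 1. Snrpd1 had 148.0 and 150.2 CPM and then 171.6, 172.7 and 145.3 CPM. Of the U2 proteins, Snrpa1 (chr7:66060336-66074587) had 225.0 and 220.1 CPM and then 218.3, 224.3 and 236.1 CPM, and overlapped. Snrpb2 (chr2:143063069-143072052), its partner on U2 RNA, had 125.3 and 119.9 CPM and then 151.2, 166.6 and 143.9 CPM. All of experiment 2 lay above experiment 1, and the difference did not pass (0.34 ± 0.13, edgeR adjusted p = 0.0791). Snrpa, the U1 protein related to Snrpb2, overlapped as well.

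The promoter of Snrpc is shown as that of the largest fall among the called genes (GRCm38.p6, plus strand, chr17:27839837-27840086, the 250 bases before the start, with the same use of capitals).
Snrpc: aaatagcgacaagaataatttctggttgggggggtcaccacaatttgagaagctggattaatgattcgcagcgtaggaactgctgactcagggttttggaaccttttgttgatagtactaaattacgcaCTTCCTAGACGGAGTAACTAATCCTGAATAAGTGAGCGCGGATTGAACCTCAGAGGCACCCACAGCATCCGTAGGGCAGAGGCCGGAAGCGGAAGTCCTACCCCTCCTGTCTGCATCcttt
Capitals run from -121 to -5, and CCGGAAG, the core bound by ETS family factors, begins at -39 inside them. The widest peak within 1000 bp was 9 and 107 bp in experiment 1 and 111, 187 and 117 bp in experiment 2. Omni-ATAC gave no peak with 5000 cells, 186 bp with 10000 cells and 391 bp with 50000 cells. The peak was thus present in both experiments.

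The genomic span of a gene varied with the difference between experiments in the whole table. Genes averaging 10 CPM or more, without the 52, were sorted by span into 5 classes of like size. The median log2 fold change went from -0.046 in the shortest class (96 to 6517 bp) to 0.080 in the longest, and lower calls from 13.2% to 4.55%. Higher calls made up 8.96% of the shortest class and 9.95% of the longest. Of the 47 splicing factor genes at that level, 13 were in the shortest class and 0 in the longest. Of the 4 splicing factor genes called lower, 3 were in the shortest class, as were 2 of the 7 called higher. The part of gene span in these calls was not tested.

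A list of 79 other splicing genes was counted in the same fit. Of 78 tested, 7 were higher and 2 lower in experiment 2 (11.5%, where 12.5% of all genes were called), with a median log2 fold change of 0.100. Ptbp2, the polypyrimidine tract-binding protein of neural cells, had 5.10 and 4.75 CPM and then 5.97, 11.9 and 12.7 CPM, so the library from 5000 cells was nearer to experiment 1 (1.32 ± 0.27, edgeR adjusted p = 0.00183). Phf5a, an SF3b subunit named outside the Sf3 scheme, had 664.3 and 573.0 CPM and then 500.7, 448.6 and 442.7 CPM, below experiment 1 throughout (-0.47 ± 0.11, edgeR adjusted p = 0.00704). Dhx16, a helicase that readies the spliceosome for catalysis, had 132.9 and 130 CPM and then 80.7, 83.1 and 87.3 CPM, again below throughout (-0.63 ± 0.13, edgeR adjusted p = 0.00148). The other genes called higher had log2 fold changes of 0.47 to 0.59. They were Crnkl1 and Plrg1 of the Prp19-related complex, the helicase Dhx38, the SR-related Tra2a, the regulator Rbm25 and Gemin4 of the snRNP assembly complex. Rbm25 was called in 5 of 11 alternative fits, Crnkl1 and Dhx38 in 6, Plrg1 in 8, and Tra2a, Gemin4 and Phf5a in 9. Dhx38 ran from 0.305 to 0.686 in these fits. Of the 11 U5 and tri-snRNP genes, the 7 LSm genes, the 4 exon junction complex genes and the 6 kinases of SR proteins, 0 were called.

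The number of cells is what the design varied, so 20000 cells were compared with 10000 cells over the same 4 libraries. With edgeR, 0 of 50 splicing factor genes were called (background 0%), and 1, Hnrnph3, had an unadjusted p under 0.05 (background 0.807%). DESeq2 called 0 as well. With the experiment as a replicate block, edgeR called 0 (background 0.0319%), and 3 had an unadjusted p under 0.05 (background 4.52%). The coefficient of variation between libraries was 32% here, against 17.1% for the experiments. Each group here holds both days, and the part of this in the larger value was not tested. Medians were -0.045 for the SR proteins, -0.033 for the hnRNPs, 0.065 for SF3 and -0.088 for the snRNP proteins. Apart from Hnrnph3, which had few counts, log2 fold changes ran from -0.34 for Hnrnpul1 to 0.27 for Hnrnph2. Hnrnpul1 had 12.02 CPM with 10000 and 8.50 CPM with 20000 cells in experiment 1, and 11.6 and 10.3 CPM in experiment 2. The difference had the same sign in both experiments. Hnrnph2 had 7.65 and 10.4 CPM, and 8.58 and 9.40 CPM.

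The single mRNA library from 5000 cells was set beside the mean of the other experiment 2 libraries on the log2(CPM + 1) scale, with no test. Of the 47 genes averaging 10 CPM or more, 0 differed by more than 1.5-fold, where the background was 4.27%. The lowest was Hnrnpa0, an hnRNP of the A family, at -0.459, with 132.8 CPM against 185.9 and 179.9 CPM. The highest was Snrpf at 0.407, with 253.8 CPM against 216.4 and 165.9 CPM. Experiment 1 had 152.6 and 150.7 CPM of Hnrnpa0, between these values.

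Promoters were examined in the 8 ATAC lists, which hold intervals without heights. A gene start was taken as the 5′ end of the gene in the count table, and a promoter peak as an interval within 1000 bp of it. Of the 47 genes averaging 10 CPM or more, all 47 had one in the Omni-ATAC list from 50000 cells, where 95.7% of all genes at that level did. With 5000 cells of Omni-ATAC it was 22 of 47 (46.8%, background 38.8%). In experiment 1 the counts were 38 with 10000 cells (80.9%, background 61.7%) and 41 with 20000 cells (87.2%, background 71.2%). In experiment 2 they were 34, 40 and 43 with 5000, 10000 and 20000 cells (backgrounds 62.7%, 76.9% and 88.8%). Omni-ATAC with 10000 cells gave 41 (background 75.9%). In each list the share was above that of all genes at that level, with 3 exceptions under other settings: with intervals of at least 50 bp only, it was 34.04% beside 34.97% in the experiment 1 list from 10000 cells. Within 500 bp it was 36.17% beside 37.01% in the Omni-ATAC list from 5000 cells, and within 2500 bp 91.49% beside 91.63% in the experiment 2 list from 20000 cells. The share was larger with more cells within each series, as was the number of peaks in the lists. Read depth is unknown for the ATAC libraries, so it cannot be told apart from cell number.

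**Figure D3:**
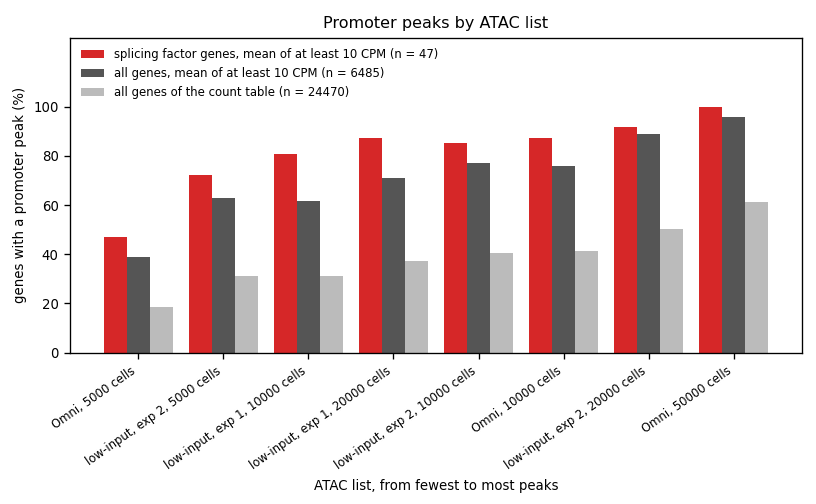
Bars give the percentage of genes with a promoter peak in each ATAC list, with lists ordered from the fewest to the most peaks. Red is the 47 splicing factor genes averaging 10 CPM or more, dark grey all 6485 such genes and light grey all 24470 genes. The red bar is the highest in every list, from 46.8% to 100%.

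A peak in all 8 lists was found for 21 of 52 splicing factor genes. All 21 were among the 47 at 10 CPM or more, which makes 44.7%, where the background was 32.2% of genes at that level and 14.8% of all genes. Within 500 bp of the start the count was 16 (34.0% of the 47, where 30.6% of all genes at that level held one). With intervals of at least 50 bp only, the count fell to 6 (12.8% of the 47, where 11.3% of all genes at that level held one). Peak widths were counted over all 52 splicing factor genes at any level, and set beside all genes at 10 CPM or more. In the experiment 1 list from 10000 cells, 18 of the 39 splicing factor genes with a peak had none wider than 9 bp. Of all genes at 10 CPM or more with a peak, 26.95% had none wider, and the median widest peaks were 15 and 85 bp. In the experiment 2 list from 20000 cells, 1 of 45 splicing factor genes had none wider than 9 bp. There the share of all genes at 10 CPM or more was 6.98%, with medians of 253 and 238 bp. The 5 low-input lists alone all held a peak for 31 of the 47 (66.0%, where 49.4% of all genes at that level did). By family, all 8 lists held a peak for 4 of 11 SR protein genes, 10 of 21 hnRNP genes, 3 of 9 SF3 genes and 4 of 11 snRNP protein genes. Hnrnpul2 had wide peaks, at 748 and 901 bp in experiment 1 and 291, 754 and 965 bp in experiment 2, and its start lies within 1000 bp of that of Ttc9c on the other strand. The deposited unified list of 18310 regions held a promoter region for 40 of the 52, and for 37 of the 47 at 10 CPM or more (78.7%, where 65.9% of all genes at that level had one).

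**Figure D4:**
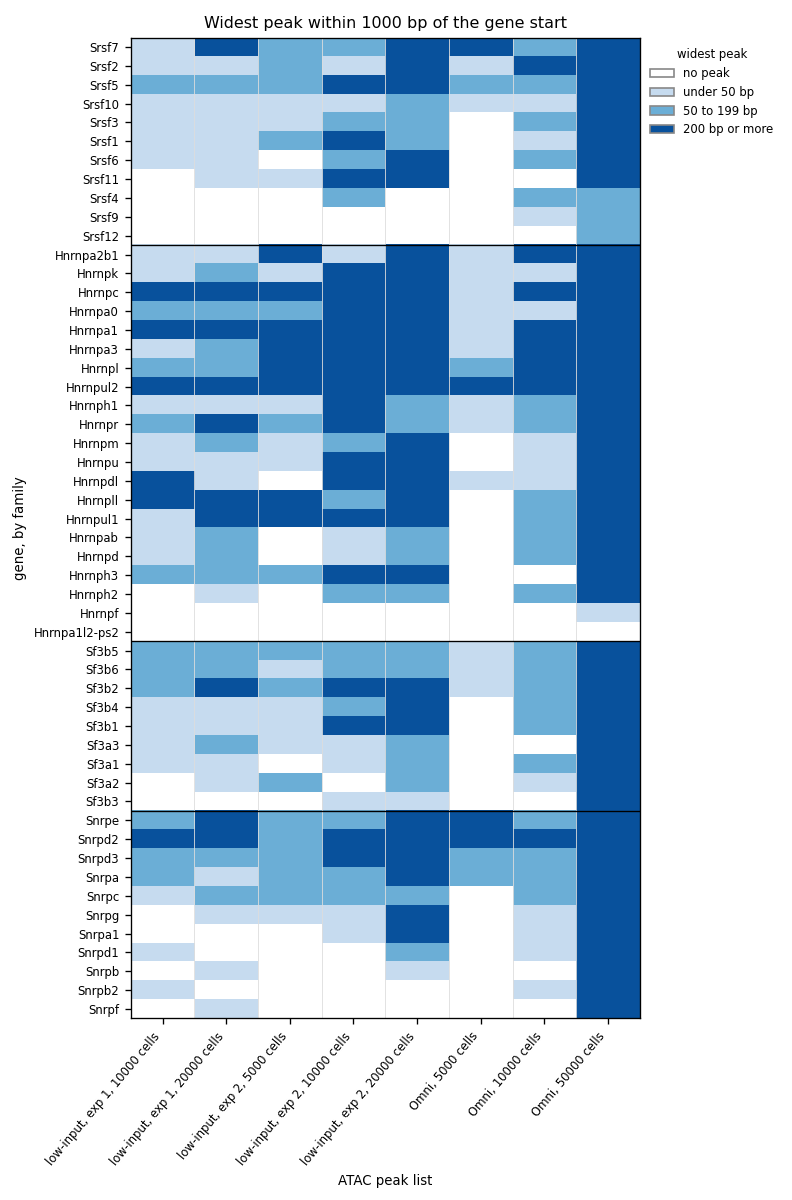
Rows are the 52 genes by family and columns the 8 ATAC lists. The shade gives the width of the widest interval within 1000 bp of the gene start, from white (no peak) to dark blue (200 bp or more). The column of Omni-ATAC with 50000 cells is filled in 51 of 52 rows, and 5 of the 11 snRNP protein genes, at the foot, are filled in 4 columns or fewer.

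Snrpe, an Sm ring gene, is shown because, of the genes open in all 8 lists, it had the highest mean CPM (GRCm38.p6, minus strand, chr1:133610281-133610530).
Snrpe: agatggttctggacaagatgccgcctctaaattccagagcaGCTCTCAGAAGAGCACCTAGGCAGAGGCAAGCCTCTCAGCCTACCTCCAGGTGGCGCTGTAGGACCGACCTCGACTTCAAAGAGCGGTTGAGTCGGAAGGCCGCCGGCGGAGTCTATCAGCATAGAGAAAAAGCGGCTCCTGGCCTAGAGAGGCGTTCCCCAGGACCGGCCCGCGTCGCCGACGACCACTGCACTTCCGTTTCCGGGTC
Here the capitals, again the bases inside a peak in at least 4 lists, run from -209 up to the start. The widest peak was 166 and 257 bp in experiment 1, 159, 181 and 432 bp in experiment 2, and 252, 186 and 468 bp in the Omni-ATAC lists. None of the 7 motifs searched lies in the shown stretch; CCGGAAG lies just after the start, outside it.

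Among the genes open in the fewest lists, several were well expressed. Snrpb had a peak in 3 lists, of 9 bp in the 20000 cell lists of both experiments and 493 bp in Omni-ATAC with 50000 cells. Snrpf had one in 2 lists, of 11 bp with 20000 cells of experiment 1 and 402 bp with 50000 Omni-ATAC cells. Snrpb2 had 9 bp with 10000 cells of experiment 1 and of Omni-ATAC, and 760 bp with 50000. For these 3 genes every peak under 50000 cells was thus 11 bp or shorter. Sf3b3 had a peak in 3 lists (9, 20 and 226 bp). Snrpa1 and Snrpd1 had one in 4 lists, with 354 and 157 bp at 20000 cells of experiment 2. Srsf9 (chr5:115327177-115333080), with 38.9 and 41.1 CPM and then 58.1, 52.2 and 43.8 CPM, had one in 2 Omni-ATAC lists and in 0 of the 5 low-input lists. Of the genes with few counts, Srsf4 had a peak in 3 lists, Srsf12 in 1 and Hnrnpa1l2-ps2 in 0.

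Hnrnpf (chr6:117900340-117925622), a relative of Hnrnph1 that also binds G runs, had 77.7 and 69.7 CPM in experiment 1 and 76.1, 89.0 and 96.3 CPM in experiment 2. The library from 5000 cells lay inside the range of experiment 1 (0.33 ± 0.13, edgeR adjusted p = 0.108). At its start in the count table it had a peak in 1 list, a 17 bp interval with 50000 Omni-ATAC cells. RefSeq gives more starts further in. At the start 6442 bp downstream, a peak lay within 100 bp in 7 of 8 lists, and at those 7464 and 16954 bp downstream in 4 and 3 lists. Both windows are shown because they differ in this way (GRCm38.p6, plus strand, chr6:117900090-117900339 and chr6:117906532-117906781), with capitals as before. The second was chosen after its peaks had been seen.
Hnrnpf, first start: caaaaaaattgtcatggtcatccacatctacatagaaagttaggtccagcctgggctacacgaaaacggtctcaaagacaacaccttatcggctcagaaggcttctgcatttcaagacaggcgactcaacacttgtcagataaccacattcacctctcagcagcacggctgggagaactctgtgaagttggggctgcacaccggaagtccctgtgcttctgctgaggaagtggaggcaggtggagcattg
Hnrnpf, start 6442 bp downstream: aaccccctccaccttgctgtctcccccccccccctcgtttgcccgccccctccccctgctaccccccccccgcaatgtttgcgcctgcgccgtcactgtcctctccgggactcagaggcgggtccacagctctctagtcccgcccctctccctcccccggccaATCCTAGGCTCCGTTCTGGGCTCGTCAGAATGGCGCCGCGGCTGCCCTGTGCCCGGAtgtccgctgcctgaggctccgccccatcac
The first window holds no capitals, a GC content of 50.4% and CCGGAAG at -50. The downstream window has capitals from -87 to -31, a GC content of 70.8%, CCAAT at -90, and GGGCGG on the other strand at -208, -111 and -12. At Hnrnpk, no list had a peak within 100 bp of the table's start, and all 8 had one over the RefSeq start 1226 bp downstream. With any RefSeq start allowed, an alternative chosen after the data were seen, 22 genes had a peak in all 8 lists.

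**Figure D5:**
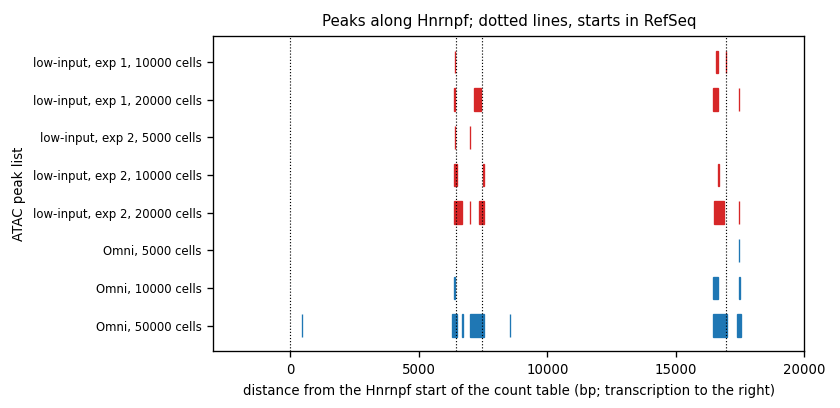
Boxes are peaks along Hnrnpf in each ATAC list, red for low-input and blue for Omni-ATAC, by distance in bp from the gene's start in the count table; intervals too short to see are drawn as thin lines. Dotted lines are the starts in RefSeq. Peaks gather at the starts 6442, 7464 and 16954 bp downstream, and the first start has a single 17 bp interval near it.

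Motif letters were counted on both strands in RefSeq promoter windows from 250 bases before to 50 after a start (GRCm38.p6), found for 46 of the 52 genes. The 46 were not filtered by level and include Hnrnph2, Srsf4, Hnrnph3, Srsf12 and the pseudogene Hnrnpa1l2-ps2, all under a mean of 10 CPM. TATAAA was in 15.2% of the 46, namely 7 genes with the pseudogene among them. This stands beside 6.43% of 5286 genes averaging 10 CPM or more and 13% of all 18205 promoters matched. CCAAT was in 47.8% (40% and 39.2%), GGGCGG, the core bound by Sp1, in 69.6% (68.8% and 46.7%), and CACGTG, the E-box bound by Myc among others, in 10.9% (11.7% and 8.19%). CCGGAAG was in 34.8% (24.4% and 11.9%), namely 16 genes, among them Snrpc, Sf3a2, Sf3b3, Srsf5 and Hnrnpd of those called. AAGATGG, the core bound by YY1, was in 4.35% (9.29% and 6.53%). GCATGCG was in 6.52% (8.53% and 4.59%), namely Hnrnph1, Hnrnpl and Srsf7. The median GC content was 60.2% (61% and 56.3%), and the median number of CpG in the window 24.5 (22 and 13). These shares describe letters, not binding.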

How the data were processed

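Messenger RNA was measured in 5 libraries and open chromatin in 8. The authors deposited a table of raw counts, in whole reads for each gene, whose mm10 coordinates are stated per the file headers. ATAC intervals were deposited by the authors as 1 list per library and a unified list, with no height, score or p-value. The submitters' processing notes name cutadapt, Bowtie2 2.1.0, SAMtools 1.3.1, Picard, bedtools 2.24.0, MACS2 2.1.1, STAR 2.5, featureCounts and Subread 1.5.0-p1, without their order; strand use, the annotation, peak thresholds and the handling of multi-mapping reads are not given in the sources used here. Where counting ignored strand, reads of overlapping genes (8 of the 52) cannot be told apart.

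Groups came from the sample titles. No column lay outside the 5 libraries. Counts of any pair of libraries differed beyond sampling noise (chi-square per gene at least 10.7). Tests used edgeR 4.0.16 in R 4.3.3 (TMM, filterByExpr, glmQLFit, glmQLFTest, Benjamini-Hochberg over all 12523 genes, threshold 0.05) without a block, on the 4 libraries from 10000 and 20000 cells; the SE is the fold change divided by the root of F. The steps were tested on simulated counts. The experiment number marks a shared day per the design text, so it pairs libraries across cell numbers: the experiment 2 to 1 ratios with 10000 cells and with 20000 cells had r = 0.685 across 6485 genes, which are not independent replicates. Alternatives were DESeq2 1.42.0, RLE factors, library size alone, blocks, no filter, a filter at 10 CPM, the library from 5000 cells added, each library left out, and for peaks 500 and 2500 bp, a width of at least 50 bp, RefSeq starts and the shortest list left out.

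RefSeq tables of GRCm38.p6 matched 52 of 52 genes by gene ID; gene starts were equal in 27. Promoter windows were found for 46. Coordinates are 1-based. Protein sequences and transcript lengths were not used here. The genes and lists were chosen with earlier results of these data known. Named genes are those called, the highest and lowest mean CPM of each family, those with under 10 counts in every library, and those open in the fewest lists; others were named after their values were seen. Promoters shown are the largest rise and the largest fall among called genes, of the genes open in all 8 lists the one with the highest mean CPM, and the one open in the fewest lists among genes averaging 10 CPM or more with a promoter window. Python 3.11.15, pandas 2.3.3, numpy 2.4.6 and matplotlib 3.10.9 were used. The limit for a count of 0 covers counting error only. The SE also takes in the spread between libraries as estimated in the fit.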

Additional observations from a re-analysis of the deposited data

Results flagged for a closer look

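Srsf4, an SR protein gene with few counts, went opposite ways between the experiments at the 2 cell numbers. With 10000 cells it had 2.33 CPM in experiment 1 and 0.58 CPM in experiment 2, a log2 ratio of -1.076 on the log2(CPM + 1) scale. With 20000 cells it had 1.14 CPM and 1.32 CPM, a log2 ratio of 0.119. Each value is 1 library of 9 to 32 counts, and the difference between the cell numbers was not tested. The gene shares 2248 bp with Gm12992, and the part of this overlap in its counts was not tested.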

How the results depend on the processing

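Between experiments, 22% of the splicing factor genes tested were called, beside 12.5% of all genes. The shares were 20% beside 12.5% with RLE size factors, 18% beside 11.3% with library size alone and 24% beside 10.6% with DESeq2. Without a filter on low counts they were 21.2% beside 8.54%, and at a mean of at least 10 CPM 29.8% beside 21.9%. A cell number block gave 22% beside 14.1%, and the added library from 5000 cells 22% beside 11.4%. The count of 11 called splicing factor genes was 9 to 14 under these settings, and without chromosome 8 or overlapping genes. It was 0 with a log2 fold change of at least 1 required, and with 1 library left out it ran from 4 to 10, with 4 when the experiment 1 library from 10000 cells was left out. Hnrnph1, Srsf5 and Snrpc were called in all 11 alternative fits. Snrpd2 was lost in 8, Hnrnpu in 5, Sf3b3, Hnrnpl and Sf3a2 in 2, and Srsf6, Sf3b5 and Hnrnpd in 1. Of genes not called, Snrpd3 was called in 5, Hnrnpul2 in 3, and in 1 each Srsf3 (DESeq2), Snrpb2 (a mean of at least 10 CPM) and Hnrnpk (without the experiment 2 library from 20000 cells). None of the 25 splicing factor genes whose fold change between experiments was rerun reversed in the fits where it was tested, nor did the 9 called genes of the other splicing list, of which Dhx16 and Ptbp2 were called in every such fit, or Hnrnpul1 and Hnrnph2 between cell numbers. The snRNP protein median kept its sign in 10 of 11 fits, going from -0.088 to 0.027 with the library from 5000 cells added. The median log2 fold change of 0.107 was 0.114 with RLE size factors and with DESeq2, 0.120 at a mean of at least 10 CPM, 0.115 with a cell number block and 0.133 with the library from 5000 cells added. Without a filter on low counts it was 0.146, where the median over all genes was 0.121 in place of 0.001. With 1 library left out it ran from 0.114 to 0.156. For each of these the cause was not tested. The replicate block (experiment number, a shared day) gave 0 called splicing factor genes between cell numbers, as did the fit without it and every other alternative run. With this block 3 had an unadjusted p under 0.05 (background 4.52%). The block called 4 genes in the whole table (0.0319%) where the fit without it called 0. Between experiments the cell number block gained Snrpd3 and lost Snrpd2, and changed no other call of a splicing factor gene. The count of 21 genes with a peak in all 8 lists was 16 at 500 bp and 22 at 2500 bp. It was 19 at RefSeq gene starts and 30 without the Omni-ATAC list from 5000 cells. With intervals of at least 50 bp it was 6, where fewer intervals remain. Of the splicing factor genes averaging 10 CPM or more, 44.7% had such a peak in the main setting, beside 32.2% of all genes at that level. At 500 bp the shares were 34.0% beside 30.6%, and with intervals of at least 50 bp 12.8% beside 11.3%. The excess over all genes was thus much smaller at both settings. The shares were 46.8% beside 34.1% at 2500 bp and 40.4% beside 30.6% at RefSeq gene starts. Read depth limits what the ATAC lists show and is unknown.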

Other observations

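A low mRNA count and an open promoter occurred together at Hnrnph3, a gene singled out after its values were seen. Its mRNA had at most 1.38 CPM, yet a peak lay within 1000 bp of its start in all 5 low-input lists, at 181 and 195 bp in experiment 1 and 185, 245 and 508 bp in experiment 2. In the Omni-ATAC lists it had none with 5000 or 10000 cells and 506 bp with 50000 cells. Hnrnph3 shares 4079 bp with Rufy2, and how reads of shared stretches or with several matches were counted is not given in the sources used here; the part of either in this count was not tested. The start of Pbld2 on the other strand lies within 1000 bp, so the peak cannot be assigned to 1 of the 2 genes.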
